A study of Mus musculus with 4 samples.

Results

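The genes described are 9 surface ligands that natural killer (NK) cells, T cells or macrophages read on a target cell: Nectin2, Pvr, Ulbp1, Raet1d, Raet1e, H2-T23, Cd274, Lgals9 and Cd47. They were taken by name as ligands of NK receptors and of immune checkpoints, and all 9 are among the 50679 genes of the deposited table. The 4 RNA-seq libraries came from mammary tumour cells of mice that all carried PyMT, the polyoma middle T oncogene: PCNA 211F (2 libraries, 211F 1 and 211F 2, columns headed Y211F) and PCNA WT (2 libraries, WT 1 and WT 2). PCNA is the sliding clamp of DNA replication. Per the labels, tumours were taken from mice 10 weeks old and dissociated, EpCAM-positive epithelial cells were captured, and the cells were then cultured with serum from a plating density of 100000. The series calls the libraries of a genotype independent biological repeats. Not given in the sources used here are the promoter that drives PyMT, the mouse strain, and whether each library is a separate animal. The p-values then cover only the spread among these 4 libraries.

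An NK cell weighs activating against inhibitory signals. NKG2D is an activating receptor that binds the stress-induced ligands of the RAE-1, MULT1 and H60 families in the mouse. CD226 (DNAM-1) is an activating receptor for PVR and nectin-2, and TIGIT is an inhibitory receptor that competes for the same ligands. Qa-1, the product of H2-T23, presents peptides to the inhibitory receptor NKG2A. PD-L1 (Cd274), galectin-9 (Lgals9) and CD47 restrain T cells or phagocytes.

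No ligand passed the test between the genotypes, and Nectin2 was the only ligand whose 211F and WT libraries did not overlap. Of all tested genes 26.8% had genotypes that did not overlap, in either direction. The NKG2D ligand transcripts Ulbp1, Raet1d and Raet1e were high in WT 2, lower in 211F 1 and close to 0 in 211F 2 and WT 1, so they split the libraries across the genotypes. Levels are in FPKM, which counts fragments per kilobase of transcript relative to the size of the library. Differences are 211F minus WT on the log2(FPKM + 1) scale, on which changes of low genes come out too small. limma was fitted over the 12767 genes averaging 1 FPKM or more, and 0 of them (0%) passed at a Benjamini-Hochberg adjusted p of 0.05. With 2 libraries a genotype and this spread, a count of 0 does not show that the genotypes are alike. At an unadjusted limma p under 0.05 there were 241 genes (1.89%), and 127 (0.995%) were lower in 211F. Of the 9 ligands 8 reached that mean, and Cd274 did not. For a single gene, the smallest p of a two-sided exact permutation test with 2 libraries a genotype is 1 in 3.

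The libraries also differed in their levels of cell type markers. The summed level of 8 epithelial markers was 3280 FPKM in 211F 1 and 3344 in 211F 2, against 2918 FPKM in WT 1 and 6.92 in WT 2. All 8 had a positive difference and were lowest in WT 2, while 46.9% of all tested genes had a negative difference. Of the 8 markers 2, Krt8 and Krt14, were higher in both 211F libraries than in both WT libraries, as were 15.2% of all tested genes. The summed level of 8 mesenchymal or fibroblast markers was 4214 FPKM in 211F 1 and 30.2 in 211F 2, against 258 FPKM in WT 1 and 3281 in WT 2. WT 2, labelled as epithelial like the rest, was thus nearly without these epithelial markers. In 211F 1 most of the mesenchymal sum was Vim (1856) and Fn1 (1851), and Acta2 (442), Zeb1 (41.6) and Pdgfrb (19.5) were present too. Col1a1 (2.70) and Col1a2 (0.286) were low there, against 437 and 416 in WT 2. Fap was low in every library (at most 0.460 FPKM). The 11 markers of lymphocytes summed to at most 0.273 FPKM in any library, and 3 of these 11, among them Klrb1c and Klrk1, were listed at 0 in all 4. For 8 myeloid markers the sums were 7.80 FPKM in 211F 1 and 14.97 in 211F 2, against 69.6 in WT 1, nearly all of it Cd14 (67.2), and 12.0 in WT 2. The 4 endothelial markers summed to at most 1.92 FPKM. By Pearson r over the tested genes (a description, since genes are not replicates), 211F 2 was nearest to WT 1 (0.920) and farthest from WT 2 (0.741).

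**Figure D1:**
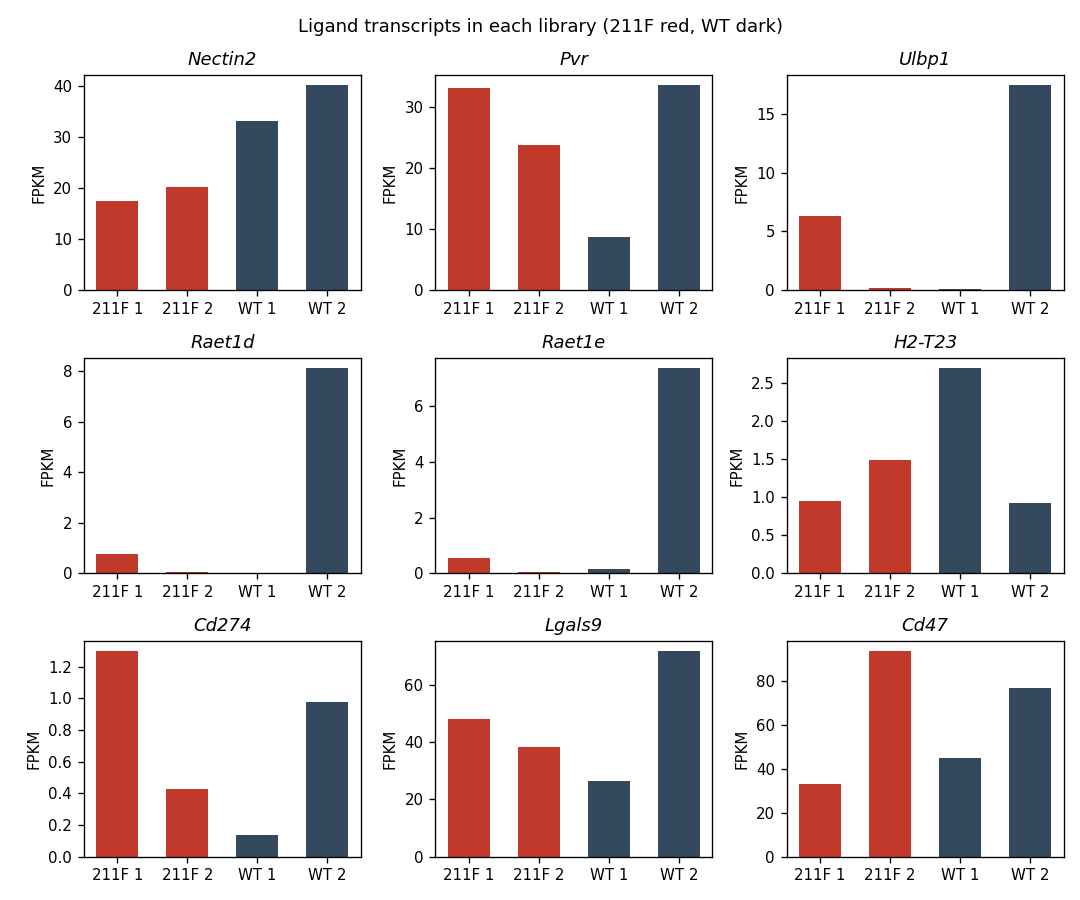
Level of each of the 9 ligand genes in FPKM (vertical axis, linear, from 0) in each library (1 bar per library, 211F red, WT dark; no error bars, each bar is a single library). Nectin2 is lower in both 211F libraries (17.4 and 20.2 FPKM) than in both WT libraries (33.05 and 40.1 FPKM), while Ulbp1, Raet1d and Raet1e are highest in WT 2.

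Nectin2 encodes nectin-2 (CD112), a cell adhesion protein bound by CD226 and TIGIT. It stood at 17.4 FPKM in 211F 1 and 20.2 in 211F 2, against 33.05 FPKM in WT 1 and 40.1 in WT 2. Both 211F libraries lay below both WT libraries, as they did in 1485 of the tested genes (11.6%), and groups that did not overlap in either direction were found in 26.8%. The means were 18.8 ± 2.02 FPKM in 211F and 36.6 ± 5.0 FPKM in WT (SD, n = 2 each). The difference was -0.92 ± 0.26 (SE), with a limma adjusted p of 0.9999 and an unadjusted limma p of 0.0223. The gap between libraries of a genotype was smaller than this difference, at 0.21 between the 211F libraries (211F 2 higher) and 0.27 between the WT libraries (WT 2 higher). In bulk RNA, fewer cells of a type and less RNA per cell cannot be told apart. WT 1 and WT 2, far apart in summed epithelial markers (2918 and 6.92 FPKM), were the upper pair for this gene. Leaving out any library kept the difference between -1.06 and -0.78. Nectin2 lies at GRCm38 chromosome 7, 19716644 to 19750483, minus strand. An exon overlaps Gm20512 on the other strand, which was at 5.45 and 6.49 FPKM in 211F and 5.39 and 4.46 in WT. Whether the authors' counting used strand was not stated.

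The 250 bases before the RefSeq start of Nectin2 are shown because it was the only ligand with separated genotypes (GRCm38.p6, chr7:19749574-19749823, minus strand, 5′ to 3′). Capitals mark GC boxes (GGGCGG on either strand), the motif of Sp family factors. The window holds 2, and 32.7% of the 32851 RefSeq windows of this length hold at least 1.
Nectin2: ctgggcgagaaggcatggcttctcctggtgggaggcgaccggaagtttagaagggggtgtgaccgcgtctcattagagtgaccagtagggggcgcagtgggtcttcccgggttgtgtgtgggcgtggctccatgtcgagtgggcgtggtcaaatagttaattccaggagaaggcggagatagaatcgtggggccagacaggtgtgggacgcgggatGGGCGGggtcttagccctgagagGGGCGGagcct

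Pvr encodes the poliovirus receptor homologue (CD155), the other main ligand of CD226 and TIGIT and a ligand of CD96. It was at 33.1 FPKM in 211F 1 and 23.8 in 211F 2, against 8.76 FPKM in WT 1 and 33.6 in WT 2. The genotypes overlapped: WT 1 was lowest and WT 2 level with 211F 1. The means were 28.5 ± 6.58 FPKM in 211F and 21.2 ± 17.6 in WT (SD, n = 2 each), and the difference was 0.66 ± 0.70 (SE; limma adjusted p = 0.9999). It turned to -0.25 without WT 1 and reached 1.58 without WT 2. Pvr lies close to Nectin2 on chromosome 7 (19903578 to 19921160, minus strand).

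Nectin-2 and PVR compete for the same receptors, so their transcript levels were also set against each other within each library, a choice made after their values were seen and given with no test. The Nectin2 level was 0.525 times that of Pvr in 211F 1 and 0.850 times in 211F 2, against 3.77 times in WT 1 and 1.19 times in WT 2. Pvr was the more abundant of the pair in both 211F libraries and Nectin2 in both WT libraries, by a small margin in WT 2. Their sum was 50.5 FPKM in 211F 1 and 44.1 in 211F 2, against 41.8 FPKM in WT 1 and 73.7 in WT 2.

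Ulbp1 encodes MULT1, a transmembrane ligand of NKG2D. It was at 6.31 FPKM in 211F 1 and 0.202 in 211F 2, against 0.0605 FPKM in WT 1 and 17.5 in WT 2. WT 2 and 211F 1 were high and the other libraries were near 0, with a high and a low library in each genotype. As a guide to what near 0 means, 3 fragments in 1 kb are worth an estimated 0.0787 FPKM in 211F 1, 0.0917 in 211F 2, 0.0858 in WT 1 and 0.0499 in WT 2. A longer transcript holds more fragments at the same FPKM, and annotated Ulbp1 transcripts run from 383 to 5959 bases. On the log2(FPKM + 1) scale the gap was 2.61 between the 211F libraries and 4.12 between the WT libraries, against a difference between genotypes of -0.58 ± 1.76 (SE; limma adjusted p = 0.9999). Without WT 1 that difference was -2.64 and without WT 2 it was 1.48. Leaving out a 211F library gave -1.88 (211F 1) or 0.72 (211F 2). Its span over the 4 libraries, 4.12, was larger than that of 95.8% of the tested genes. Ulbp1 lies at chromosome 10, 7440362 to 7473638, minus strand.

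Raet1d encodes RAE-1 delta, a ligand of NKG2D held by a lipid anchor. It was at 0.755 FPKM in 211F 1 and 0.0409 in 211F 2, was listed at 0 in WT 1 and was at 8.12 in WT 2. Raet1e, which encodes RAE-1 epsilon, was at 0.541 FPKM in 211F 1 and 0.0442 in 211F 2, against 0.160 FPKM in WT 1 and 7.36 in WT 2. In both genes WT 2 was far above the other 3 libraries and 211F 1 came next, so the genotypes overlapped. Both reached a mean of 1 FPKM only through WT 2. Summed, they stood at 1.30 FPKM in 211F 1 and 0.0852 in 211F 2, against 0.160 FPKM in WT 1 and 15.5 in WT 2. The differences between genotypes were -1.16 ± 1.25 for Raet1d and -1.30 ± 1.13 for Raet1e (SE; limma adjusted p = 0.9999 for each). Without WT 2 they turned to 0.43 and 0.13, so their sign rests on that library.

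The RAE-1 genes lie together on chromosome 10, and their annotated models overlap (Raet1d 22360552 to 22374139, Raet1e 22158569 to 22374139, both plus strand). Of the distinct 75-base stretches in Raet1d transcripts 44.1% also occur in Raet1e, and of those in Raet1e 31.2% occur in Raet1d and 3.06% in H60b, whose exons overlap Raet1e. How such reads were split between the genes was not stated, so the separate levels of Raet1d and Raet1e are uncertain. Their sum is firmer only if shared reads were divided between them, and not if such reads were counted for both or dropped. The 250 bases before the start of Raet1d and before the second listed start of Raet1e are shown to make the duplication visible. Ulbp1 is set beside them as another NKG2D ligand gene that was highest in WT 2 and next in 211F 1, as Pvr and Lgals9 also were (GRCm38.p6, 5′ to 3′; chr10:22361644-22361893, plus strand; chr10:22173247-22173496, plus strand; chr10:7473478-7473727, minus strand; capitals mark GC boxes).
Raet1d: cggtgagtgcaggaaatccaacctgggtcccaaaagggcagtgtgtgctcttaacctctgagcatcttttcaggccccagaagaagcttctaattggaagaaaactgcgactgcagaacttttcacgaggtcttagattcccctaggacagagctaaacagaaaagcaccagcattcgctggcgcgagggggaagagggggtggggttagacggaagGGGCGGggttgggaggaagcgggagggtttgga
Raet1e: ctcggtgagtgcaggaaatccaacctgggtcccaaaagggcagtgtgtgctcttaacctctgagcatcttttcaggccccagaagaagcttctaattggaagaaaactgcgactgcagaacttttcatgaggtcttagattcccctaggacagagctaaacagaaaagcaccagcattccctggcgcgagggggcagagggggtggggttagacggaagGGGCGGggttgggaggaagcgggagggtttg
Ulbp1: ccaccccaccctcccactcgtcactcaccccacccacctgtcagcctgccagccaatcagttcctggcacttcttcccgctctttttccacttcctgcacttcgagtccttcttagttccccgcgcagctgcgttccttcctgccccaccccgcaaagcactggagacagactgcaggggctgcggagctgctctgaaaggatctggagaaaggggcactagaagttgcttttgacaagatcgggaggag

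Aligned without gaps over 248 bases, the Raet1d and Raet1e windows were 98.8% identical, with 3 differences. Counted from 1 at the 5′ end of the Raet1d window, with the Raet1d base first, they are C126T, G178C and A193C. Each of the Raet1 windows holds 1 GC box at the aligned place, and the Ulbp1 window holds none. The first listed start of Raet1e (chr10:22158319-22158568) is not a copy: its best ungapped match to the Raet1d window was 29.4% identical.

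The H60 genes are the third family of NKG2D ligands. H60b, which shares exons with Raet1e, had the same order of libraries as Ulbp1, with 0.347 FPKM in 211F 1 and 0.0361 in 211F 2, against 0.0328 FPKM in WT 1 and 2.77 in WT 2. Its mean of 0.797 FPKM was under the filter. In 211F 2 and WT 1 it was under the worth of 3 fragments in 1 kb (0.0917 and 0.0858 FPKM), so their order is uncertain. H60c ran the other way, with 2.02 FPKM in 211F 1 and 9.16 in 211F 2, against 2.69 FPKM in WT 1 and 0.0289 in WT 2. H60c was thus the most abundant NKG2D ligand transcript in 211F 2 and WT 1, and the least abundant in WT 2. Its difference between genotypes was 1.51, with a limma adjusted p of 0.9999. Summed over Ulbp1, Raet1d, Raet1e, H60b and H60c, NKG2D ligand transcripts stood at 9.97 FPKM in 211F 1 and 9.48 in 211F 2, against 2.95 FPKM in WT 1 and 35.8 in WT 2. No gene of the deposited table was matched by symbol to Raet1a, Raet1b, Raet1c or H60a, so the sum leaves them out.

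**Figure D2:**
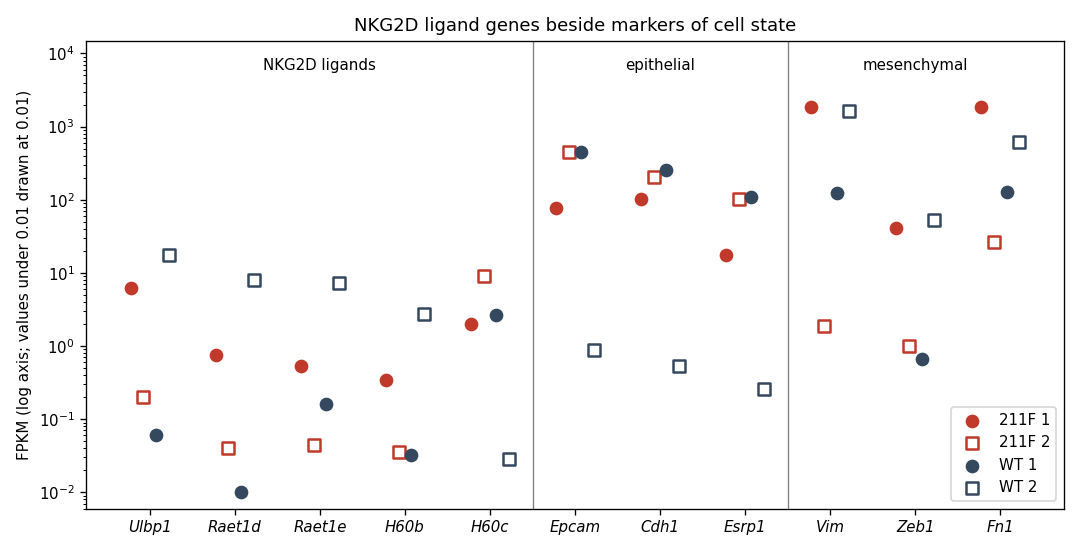
Levels in FPKM (vertical axis, log scale) of 5 NKG2D ligand genes, 3 epithelial and 3 mesenchymal markers (horizontal axis) in the 4 libraries (1 symbol per library, no error bars); values under 0.01, here Raet1d in WT 1, which is listed at 0, are drawn at 0.01. Ulbp1, Raet1d, Raet1e and H60b are highest in WT 2 and next in 211F 1, as is Zeb1 (52.3 and 41.6 FPKM). Vim and Fn1 are highest in 211F 1 and next in WT 2. H60c is lowest in WT 2 along with Epcam, Cdh1 and Esrp1.

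All 8 mesenchymal or fibroblast markers had WT 2 and 211F 1 as their highest libraries, as Ulbp1, Raet1d, Raet1e and H60b did, and H60c did not. Which of the pair was higher varied. This pair lay above 211F 2 and WT 1 in 23.8% of all tested genes, so the likeness is not particular to these genes. Acta2, a smooth muscle actin, was at 442 FPKM in 211F 1 and 0.0739 in 211F 2, against 0.600 FPKM in WT 1 and 95.8 in WT 2. Zeb1, a transcription factor that represses epithelial genes, was at 41.6 FPKM in 211F 1 and 0.996 in 211F 2, against 0.657 FPKM in WT 1 and 52.3 in WT 2. Pdgfrb, a receptor of mesenchymal cells, was at 19.5 FPKM in 211F 1 and listed at 0 in 211F 2, against 2.64 FPKM in WT 1 and 23.9 in WT 2. Col1a1, a fibrillar collagen of fibroblasts, was at 2.70 FPKM in 211F 1 and 0.566 in 211F 2, against 0.542 FPKM in WT 1 and 437 in WT 2. The part of these markers' cells in the ligand levels was not tested.

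H2-T23 encodes the heavy chain of Qa-1. H2-T23 was low throughout, at 0.951 FPKM in 211F 1 and 1.48 in 211F 2, against 2.69 FPKM in WT 1 and 0.919 in WT 2. The genotypes overlapped, and WT 1 was highest, in contrast to Ulbp1, Raet1d, Raet1e and H60b, which were highest in WT 2. Like H60c, H2-T23 was lowest in WT 2. The difference was -0.27 ± 0.57 (SE; limma adjusted p = 0.9999), and it turned to 0.20 without WT 1. Of its 75-base stretches 5.91% occur in other genes, among them H2-D1, so at this level its value is uncertain. H2-T23 lies at chromosome 17, 36029773 to 36032855, minus strand.

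Cd274 encodes PD-L1, the ligand of the checkpoint receptor PD-1. It was at 1.30 FPKM in 211F 1 and 0.429 in 211F 2, against 0.134 FPKM in WT 1 and 0.976 in WT 2. The genotypes overlapped, and 211F 1 and WT 2 were the higher libraries. The mean over all 4 was 0.709 FPKM, under the filter. With no filter on low values the difference was 0.28 ± 0.43 (SE), with a limma adjusted p of 0.9956 over 25743 genes. The gene lies at chromosome 19, 29367455 to 29388095, plus strand.

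Lgals9 encodes galectin-9, a lectin bound by TIM-3. It was at 47.9 FPKM in 211F 1 and 38.4 in 211F 2, against 26.4 FPKM in WT 1 and 71.7 in WT 2. Both 211F libraries lay between the WT libraries. The difference was -0.02 ± 0.55 (SE; limma adjusted p = 0.9999), and it was -0.73 without WT 1 and 0.68 without WT 2. Lgals9 lies at chromosome 11, 78962974 to 78984946, minus strand.

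Cd47 encodes the ligand of SIRP alpha on macrophages, often called a don't-eat-me signal. By FPKM it was the most abundant of the 9 ligands in every library but 211F 1, where Lgals9 was highest. It stood at 33.0 FPKM in 211F 1 and 93.3 in 211F 2, against 45.05 FPKM in WT 1 and 76.9 in WT 2. Both WT libraries lay between the 211F libraries, and the difference was -0.08 ± 0.62 (SE; limma adjusted p = 0.9999). It turned to 0.30 without WT 2 and to 0.66 without 211F 1. Cd47 lies at chromosome 16, 49800533 to 49915010, plus strand.

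**Figure D3:**
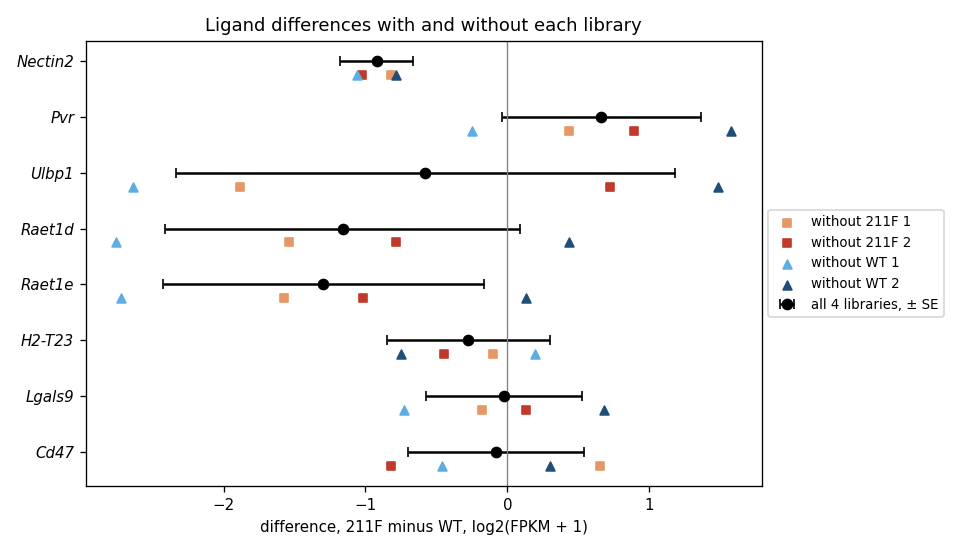
Difference between genotypes, 211F minus WT on the log2(FPKM + 1) scale (horizontal axis), for the 8 ligands tested (vertical axis). Black points are limma estimates from 4 libraries with their SE, and coloured points are estimates without a single library. Nectin2 stays between -1.06 and -0.78, and the other 7 ligands lie on both sides of 0.

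Set side by side, 7 of the 8 tested ligands had a negative difference, as did 46.9% of all tested genes, and their median was -0.43, beside 0.03 over all tested genes. Raet1d and Raet1e entered only through WT 2, so this count and median describe these libraries and support nothing further. Without WT 2 the median was 0.37. In 7 of the 8 the larger gap between libraries of a genotype exceeded the difference between genotypes, the exception being Nectin2. The median span over the 4 libraries was 1.65 on the log2 scale for the 8 ligands and 0.82 for all tested genes. Raet1d and Raet1e, which passed the filter only through WT 2, could enter only with a wide span. The comparison of spans is therefore also a description, and does not show that ligands vary more than other genes. Ulbp1, Raet1d, Pvr and Lgals9 shared an order of libraries, from WT 2 through 211F 1 and 211F 2 down to WT 1, an order held by 7.39% of the tested genes. Raet1e differed from it only in that 211F 2 was below WT 1. For Raet1d the lowest step was 0.0409 FPKM in 211F 2 against 0 in WT 1. Both are under the worth of 3 fragments in 1 kb there (0.0917 and 0.0858 FPKM), so that step is uncertain.

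The genes nearest to each ligand were found by Euclidean distance of centred log2(FPKM + 1) values, for the 7 tested ligands that spanned at least 1 log2 unit. With only 4 libraries such likeness is a description. Nearest to Nectin2 were Rtkn2, the glucose transporter gene Slc2a8 and Eps8, a regulator of actin, at distances of 0.12 to 0.14. Eps8 was at 22.2 and 23.5 FPKM in the 211F libraries, against 43.9 and 49.4 in the WT libraries. Nearest to Pvr were Slc35d2, Ptges3l and Cdkn2a, the locus of the p16 and p19 cell cycle inhibitors, at 0.14 to 0.23. Cdkn2a was at 116 and 68.8 FPKM in 211F, against 27.0 and 101 in WT.

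Nearest to Ulbp1 were Pdpn (podoplanin, a mucin-type membrane protein), Cd302 and Dlg4, at 0.22 to 0.35. Pdpn was at 5.97 and 0.0361 FPKM in 211F, against 0.0916 and 18.2 in WT. Nearest to Raet1d were Sgcd, Pde8a and Podnl1 (0.15 to 0.22), and nearest to Raet1e were Pde1a, Svep1 and Dchs1, a large cadherin (0.15 to 0.16). Nearest to Lgals9 were Tmem184b, Aga, a lysosomal amidase gene, and Zfp428 (0.08 to 0.11). Nearest to Cd47 were Adam15, a membrane metalloprotease, Sapcd2 and Tatdn3 (0.11 to 0.26), and Adam15 was at 27.0 and 71.8 FPKM in 211F against 33.3 and 59.8 in WT.

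Among the other nectins and nectin-like genes all 5 listed were measured, all 5 had a positive difference, and 0 passed the test (median 0.93). Of all tested genes 46.9% had a negative difference. Nectin3, a ligand of PVR in cell adhesion, was the only one higher in both 211F libraries, at 21.7 and 7.02 FPKM against 2.90 and 6.58 in WT. Groups were separated with 211F higher in 15.2% of the tested genes. Cadm4 was at 34.7 and 66.2 FPKM in 211F against 41.0 and 0.957 in WT, and Cadm1, which NK cells read through CRTAM, at 9.96 and 19.5 against 42.7 and 0.598. Nectin1 and Nectin4 were likewise lowest in WT 2 (3.70 and 0.0831 FPKM), the library with the lowest epithelial markers.

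Of 12 other ligands that NK cells read, 7 reached the filter, with 3 positive and 4 negative differences and 0 called (median -0.00). Cdh1 (E-cadherin) is the ligand of the inhibitory receptor KLRG1. It was at 102 and 202 FPKM in 211F, against 257 and 0.533 in WT. N-cadherin (Cdh2), another KLRG1 ligand, was at 98.0 and 0.661 FPKM in 211F, against 4.34 and 30.0 in WT. The death receptor genes Fas and Tnfrsf10b varied less, between 10.0 and 20.3 FPKM and between 7.33 and 12.1 FPKM over all 4 libraries.

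Of 13 other checkpoint ligands, 9 reached the filter, with 3 positive and 6 negative differences and 0 called (median -0.15). Cd276 (B7-H3), a B7 family member, was nearly level, at 27.7 and 31.8 FPKM in 211F and 36.1 and 30.3 in WT. Hmgb1, a chromatin protein that also binds TIM-3, was the most abundant, at 903 and 1106 FPKM in 211F against 1030 and 1204 in WT. Cd24a, a ligand of Siglec-G, was at 278 and 419 FPKM in 211F against 398 and 334 in WT, and the galectin gene Lgals3 at 94.98 and 447 against 243 and 159. Cd200, which restrains myeloid cells, was at 199 and 20.7 FPKM in 211F, against 157 and 1.22 in WT. Pdcd1lg2 (PD-L2) was at most 0.0347 FPKM in any library. Of the 9 that reached the filter, 0 had separated groups, while 26.8% of all tested genes had.

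In the CD47 pathway 5 of 6 listed genes reached the filter, and 3 of the 5 had both 211F libraries above both WT libraries, as 15.2% of the tested genes did, with 0 called (median 0.41). Calr (calreticulin), an opposing eat-me signal when it is at the surface, was at 593 and 532 FPKM in 211F, against 334 and 410 in WT (difference 0.60). Thbs1 (thrombospondin-1), a secreted ligand of CD47, was at 952 and 189 FPKM in 211F against 122 and 176 in WT. Qpctl, the enzyme that modifies CD47 so that SIRP alpha can bind, was at 8.96 and 9.61 FPKM in 211F against 5.68 and 7.93 in WT. Sirpa itself and Lrp1, the calreticulin receptor gene, were lowest in 211F 2, at 3.58 and 2.95 FPKM.

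All 8 genes listed for loading Qa-1 were measured, with 3 positive and 5 negative differences and 0 called (median -0.14). B2m, the light chain of MHC class I and Qa-1, was at 811 and 473 FPKM in 211F, against 445 and 1302 in WT. Hspd1 (HSP60), a stress protein with a peptide that Qa-1 can present, was at 440.3 and 289 FPKM in 211F libraries, against 346 and 275 in WT libraries. Tapbp (tapasin), which helps class I molecules load peptide, was at 205 and 223 FPKM in 211F libraries, against 130.4 and 256 in WT libraries. H2-D1, whose leader peptide Qa-1 presents, was at 315 and 301 FPKM in 211F against 287 and 428 in WT. H2-D1, B2m and the peptide transporter gene Tap2 had the same order of libraries as Ulbp1, while H2-T23 had its highest level in WT 1. Erap1, a peptide-trimming enzyme, was the only 1 of the 8 with separated groups (30.6 and 17.3 FPKM in 211F, 14.0 and 16.9 in WT). Separated groups were found in 26.8% of all tested genes.

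All 12 listed regulators of PD-L1 were measured, split 6 to 6 between positive and negative differences, with 0 called (median -0.02). Stat3, a cytokine-driven factor with the highest mean of the 12 over the 4 libraries but not the highest level in each, was at 67.1 and 108 FPKM in 211F libraries against 188 and 74.0 in WT libraries. Myc, a growth-promoting factor, was at 103 and 67.6 FPKM in 211F libraries against 72.5 and 57.1 in WT libraries. Nfkb1, an NF-kappaB subunit, was at 51.4 and 90.9 FPKM in 211F libraries against 84.4 and 69.7 in WT libraries. All 3 had overlapping groups. Irf1, an interferon-driven activator of Cd274, was at 109 and 48.6 FPKM in 211F against 71.3 and 113 in WT, and its higher libraries were those of Cd274. Those libraries, 211F 1 and WT 2, were the higher ones in 23.8% of all tested genes. Cmtm6, which keeps PD-L1 at the surface, was at 18.1 and 27.9 FPKM in 211F against 22.3 and 13.2 in WT. Ifngr2 and Hif1a were lower in both 211F libraries than in both WT libraries, as were 11.6% of all tested genes. Hif1a was at 32.3 and 33.2 FPKM in 211F against 39.9 and 56.9 in WT.

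Of the 3 listed proteases that shed or trim surface ligands, 0 were called. Adam10 was at 54.4 and 155 FPKM in 211F, against 87.8 and 61.2 in WT, and Adam17 at 18.0 and 34.9 against 29.9 and 21.2. Mmp14 was at 192 and 0.0580 FPKM in 211F, against 0.223 and 74.6 in WT. Adam10 and Adam17 were therefore highest in 211F 2, and Mmp14 was high only in 211F 1 and WT 2 among the 4 libraries.

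**Figure D4:**
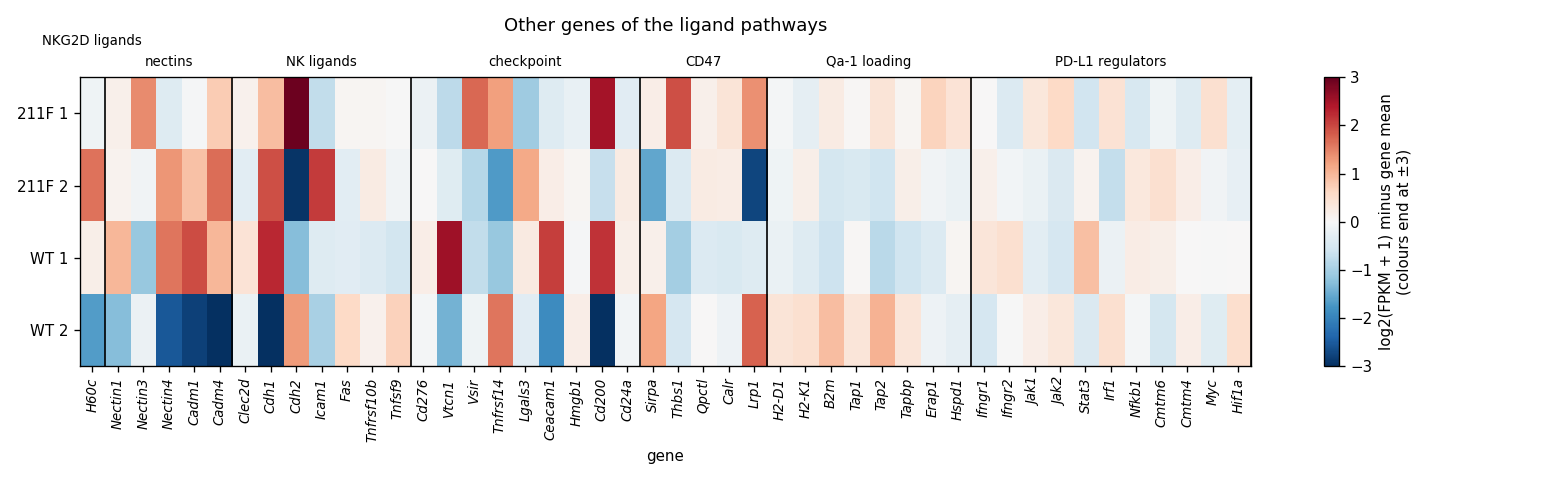
Heat map of other pathway genes that averaged 1 FPKM or more (columns, grouped by list; 1 is not shown) in each library (rows). Colour is log2(FPKM + 1) minus the gene's mean over the 4 libraries, and the scale ends at 3 in either direction. Cadm1, Cadm4, Nectin4 and Cdh1 are low in WT 2, while Lrp1 and Tnfrsf14 are high in 211F 1 and WT 2.

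Promoter windows were matched for 8 of the 9 ligands, all but Pvr. The interferon-stimulated response element, searched as GAAA, any 2 bases and GAAA, was found on either strand in the windows of Lgals9 and H2-T23, 1 match each, and in 2.98% of all windows. TTCNNNGAA, the interferon-gamma-activated site, was found in none of the 10 ligand windows and in 7.02% of all windows. CACCTG, an E-box that ZEB and SNAIL factors bind, occurred in the windows of Nectin2, Ulbp1 and Cd274, 1 match each, and in 17.2% of all windows. No overlap between matches of different motifs was removed, and a match is not evidence of binding.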

How the data were processed

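The authors deposited a single table of FPKM values for 50679 Ensembl gene identifiers in 4 libraries, with no read counts. Per the submitters' processing notes, TopHat2 2.0.13, DESeq2 and GRCm38 were used, with no role given. Not given in the sources used here: the FPKM program, its annotation, its use of strand and any rescaling between libraries. Per the labels' protocols, libraries were made with a strand-specific kit. Symbols were matched by identifier for 50369 genes. Positions are from GENCODE M21 (GRCm38), and promoter windows from RefSeq (GRCm38.p6).

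Values were taken as log2(FPKM + 1) and fitted with limma 3.58.1 in R 4.3.3, two-sided and with trended prior variance, over genes averaging at least 1 FPKM. FPKM hides depth, so the worth of 1 fragment was estimated from low values among 1974 single-transcript genes of at least 3 kb. Between 387 and 423 values were used per library. The step was picked to fit them, and 91.5% to 93.6% of them fell on whole steps (tolerance 0.1 fragment). The resulting depth relative to WT 1 was 1.09 for 211F 1, 0.935 for 211F 2 and 1.72 for WT 2, if nothing was rescaled.

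Named genes were the 9 ligands, up to 4 genes of highest mean from each pathway list with the ligands' receptors, and the 3 nearest genes of each ligand spanning 1 log2 unit. Any other gene named was picked after its values were known. The members and lists were chosen with earlier results of these data known. Alternatives were 2 pseudocounts, 2 filters, 2 scalings, no trend, a replicate block and leaving out each library. Some listed genes are not reported here.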

Additional observations from a re-analysis of the deposited data

How the results depend on the processing

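limma called 0 genes in every alternative run, and the number at an unadjusted p under 0.05 was 241 as designed, 745 with no filter (25743 genes tested), 142 with the replicate block, and between 221 and 836 on leaving out a library, the highest without WT 1. No ligand passed in any of these alternatives. Changing the pseudocount, filter, scaling or trend kept the sign of every ligand difference that could be tested, with Nectin2 between -0.96 and -0.80. The median over the tested ligands, -0.43, ran from -0.44 to -0.08 in those settings, the last over the 5 ligands left by a mean of at least 5 FPKM, and from -0.89 to 0.37 on leaving out a library.

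Leaving out a library turned the sign of 7 ligands. The differences ranged from -0.25 to 1.58 for Pvr, -2.64 to 1.48 for Ulbp1, -2.75 to 0.43 for Raet1d, -2.72 to 0.13 for Raet1e, -0.75 to 0.20 for H2-T23, -0.73 to 0.68 for Lgals9 and -0.82 to 0.66 for Cd47, and from -1.06 to -0.78 for Nectin2, whose unadjusted limma p ran from 0.0448 to 0.108 and adjusted p from 0.746 to 1. These fits use fewer samples and take the lone library of a genotype to be as variable as the pair.

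Whether shared replicate numbers mark paired libraries is not in the labels. With the replicate block 0 genes were called and the unadjusted limma p of Nectin2 was 0.0541, against 0.0223 without it. Across genes, libraries with the same number deviated from their group means with r = -0.465. With crossed numbers, added after seeing the data, the replicate block called 0 genes and put 520 at an unadjusted p under 0.05. In 211F 2 and WT 1, Ulbp1, Raet1d and Raet1e lie between 0 and a few times what 3 fragments in 1 kb are worth. Depth limits Raet1d and Raet1e there, with longest annotated transcripts of 1425 and 1579 bases. For Ulbp1, with transcripts of up to 5959 bases, the same FPKM can stand for more fragments, and whether depth limits it was not determined.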

Other observations

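Among the receptors that read these ligands, Klrk1 (NKG2D), Cd226, Klrd1 and Pdcd1 were listed at 0 in all 4 libraries. Tigit, an inhibitory receptor gene of lymphocytes, was at 8.11 FPKM in 211F 1 and 1.73 in 211F 2, against 0.571 FPKM in WT 1 and 7.72 in WT 2. Its higher libraries were those of Ulbp1, as in 23.8% of all tested genes, and its difference between genotypes was 0.43 (limma adjusted p = 0.9999). Ptprc, the pan-leukocyte antigen gene, was at most 0.0180 FPKM and Cd3e, a T cell receptor subunit gene, at most 0.0645 FPKM in any library. Havcr2, the gene of TIM-3, was at 2.44 FPKM in 211F 1 and 0.0249 in 211F 2, against 0.0116 FPKM in WT 1 and 0.150 in WT 2. Vtcn1 (B7-H4) stood out in WT 1, at 19.0 FPKM, against 0.976 and 1.66 in 211F and 0.279 in WT 2. Tigit and Havcr2 levels were singled out after they were seen.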
